A study of Arabidopsis thaliana with 12 samples.

Results

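The 60 loci described here encode proteins of the large (60S) subunit of the cytosolic ribosome in Arabidopsis thaliana, and were taken from a fixed list of locus numbers among 37138 loci in all. They cover 24 proteins, L3 to L24, and 23 of these have more than 1 listed gene, or paralogue. The RefSeq annotation names 55 of them as ribosomal proteins; the other 5 have other product names there, namely SAG24 (senescence associated gene 24), BBC1 (breast basic conserved 1) and the 3 L21 genes (translation protein SH3-like family). All 60 passed the filter on low counts that left 21561 loci for testing. Gene names are given where RefSeq has one, and the other members are called by protein and locus.

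RNA-seq was made from root tips of 0.2 cm in 4 groups of 3 biological replicates. The groups were the scl5 scl21 pat1 triple mutant on bleomycin, Col-0 on bleomycin, scl5 scl21 pat1 on control medium and Col-0 on control medium. Bleomycin, an agent that breaks DNA, was given at 0.5 µg/ml for 24 h. All seedlings grew on nylon mesh over 1/2 MS agar and were moved to the test medium 7 days after sowing. Each library pooled the tips of about 100 seeds, so it gives a mean over plants and over all cell types of the tip. Col-0 is the standard laboratory accession, and the mutant carries lesions in 3 genes of GRAS-domain transcription regulators. SCL5 had 0 to 2 reads and SCL21 had 0 reads in each mutant library, whereas PAT1 kept 9.34 to 16.9 CPM in mutant libraries, against 25.5 to 43.3 CPM in Col-0 libraries. Libraries held 36285531 to 40875363 reads, and no member had fewer than 1323 reads in any of them. Markers of the root tip (PLT1, PLT2, WOX5, SHR, SCR, SMB, BRN1 and BRN2) were above 0 reads in all 12 libraries, and the 4 genes of a DNA damage check (PARP2, SMR7, BRCA1 and TSO2) were higher after bleomycin in both genotypes.

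A cytosolic ribosome carries, as a rule, one copy of each of these proteins, so a cell needs them in matched amounts. In plants each protein is encoded by a small family of closely related genes, and several of the single-gene mutants show narrow, pointed leaves or embryo defects. Their transcription is tied to growth and cell division, and many of their promoters hold the site II motif, bound by TCP factors, and the telo box, bound by Myb-type and Pur-alpha-type proteins.

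Upstream sequence is shown first for 3 families in which paralogues differed in level or response: L3 (a protein near the peptidyl transferase centre), L10 (the protein needed for the final joining of the subunits) and L13. The L13e family gene AT3G48960, which is not one of the 60, is printed with them because it behaved differently from its relatives. Each line is the 250 bases before the gene start in RefSeq (build TAIR10.1), read 5′ to 3′ on the gene's strand, and capitals mark matches to the site II motif (TGGGCC or TGGGCT) or the telo box (AAACCCTA) on either strand.
RP1 AT1G43170, chr1:16266303-16266552, plus strand: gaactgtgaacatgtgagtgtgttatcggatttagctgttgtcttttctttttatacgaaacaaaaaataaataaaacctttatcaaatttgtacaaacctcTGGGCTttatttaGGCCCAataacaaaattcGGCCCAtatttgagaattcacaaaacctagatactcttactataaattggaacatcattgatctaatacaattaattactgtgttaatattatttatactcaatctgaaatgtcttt
RPL3B AT1G61580, chr1:22723153-22723402, minus strand: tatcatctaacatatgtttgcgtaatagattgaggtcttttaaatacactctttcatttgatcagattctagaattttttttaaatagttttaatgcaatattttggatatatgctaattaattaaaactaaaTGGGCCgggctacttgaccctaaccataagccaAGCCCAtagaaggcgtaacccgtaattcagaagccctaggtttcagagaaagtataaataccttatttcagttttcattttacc
SAC52 AT1G14320, chr1:4887864-4888113, plus strand: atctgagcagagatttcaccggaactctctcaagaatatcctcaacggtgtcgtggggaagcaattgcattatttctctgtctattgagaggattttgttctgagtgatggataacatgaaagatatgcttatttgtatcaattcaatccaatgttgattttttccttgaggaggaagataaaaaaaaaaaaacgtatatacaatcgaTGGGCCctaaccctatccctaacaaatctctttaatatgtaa
SAG24 AT1G66580, chr1:24838840-24839089, plus strand: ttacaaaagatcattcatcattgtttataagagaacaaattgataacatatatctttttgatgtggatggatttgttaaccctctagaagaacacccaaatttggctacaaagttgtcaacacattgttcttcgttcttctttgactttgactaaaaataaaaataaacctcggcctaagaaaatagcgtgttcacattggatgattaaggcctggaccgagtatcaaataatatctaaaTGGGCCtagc
BBC1 AT3G49010, chr3:18168701-18168950, minus strand: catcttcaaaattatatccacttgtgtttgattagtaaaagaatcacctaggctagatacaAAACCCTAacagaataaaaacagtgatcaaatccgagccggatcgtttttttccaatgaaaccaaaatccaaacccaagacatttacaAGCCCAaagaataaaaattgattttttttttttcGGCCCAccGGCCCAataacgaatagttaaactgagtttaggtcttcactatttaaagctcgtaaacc
the other L13 gene AT5G23900, chr5:8065551-8065800, minus strand: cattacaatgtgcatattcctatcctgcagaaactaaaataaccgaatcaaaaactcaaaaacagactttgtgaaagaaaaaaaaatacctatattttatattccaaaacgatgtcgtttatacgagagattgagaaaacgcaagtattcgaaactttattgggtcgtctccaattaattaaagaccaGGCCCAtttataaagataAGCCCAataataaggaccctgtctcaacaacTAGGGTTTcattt
the L13e family gene AT3G48960, chr3:18151413-18151662, minus strand: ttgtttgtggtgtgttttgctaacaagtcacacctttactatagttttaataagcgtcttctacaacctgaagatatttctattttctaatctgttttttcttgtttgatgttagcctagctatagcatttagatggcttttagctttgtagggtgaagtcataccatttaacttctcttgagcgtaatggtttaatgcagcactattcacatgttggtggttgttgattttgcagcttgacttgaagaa

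The L3 gene RP1 held 3 site II matches and RPL3B held 2. SAC52 and SAG24 each had 1, and the 2 L13 genes each had site II matches and a telo box, while AT3G48960 had neither motif. RPL10B (AT1G26910), also an L10 gene, had 2 site II matches and is not printed. Over the 60 members, 45 (75% of them) had a site II match in this window, against 17.8% of 31345 protein-coding genes. Among the 20270 loci tested that are not members, the share was 21.9%. The telo box was found upstream of 13 members, or 21.7%, against 4.73% of all protein-coding genes and 3.58% of the tested loci that are not members. Site II matches can overlap each other, since TGGGCCCA reads as a match on both strands; 31 members had 2 or more matches, and STV1 (L24, AT3G53020) had the most, with 5. A further 13 members, among them emb2386 (L19, AT1G02780), had neither motif in these 250 bases, which says only that these letters are not in the window. The median log2 change after bleomycin, averaged over the genotypes, was -0.56 for the 45 members with site II and -0.61 for the 15 without. It was -0.54 with a telo box, -0.57 without one and -0.63 for the 13 with neither motif. A link between motif and response was not tested.

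Transcript level differed far more between members than between proteins when the transcripts of a protein's listed genes were summed. Protein amounts were not measured, and summing genes can itself narrow a range. On the authors' TPM scale, which accounts for transcript length, mean levels over the 12 libraries ran from 53.84 TPM for AT4G13170 (L13a) to 2927 TPM for AT4G27090 (L14), a 54.4-fold range. Next to the top were emb2171 (L23, AT3G04400) with 1976 TPM and emb2386 with 1959 TPM. Next to the bottom were RPL3B with 64.74 TPM and RPL10B (L10, AT1G26910) with 79.97 TPM. When paralogues were summed, the range over the 24 proteins was 5.16-fold, from 651.1 TPM for L22 to 3357 TPM for L14. The coefficient of variation was 71.1% over the members and 34.0% over the proteins. L22 is represented by 1 gene here, and another L22 gene is not among the 60. The proteins L7, L8, L13, L18, L18a and L22 were taken, from general knowledge, to have genes outside the list. Over the other 18 proteins the range was 3.21-fold. Whether all genes of those 18 are listed was not checked. Most members were abundant: 51 of 60 stood among the 500 loci of highest mean TPM.

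**Figure D1:**
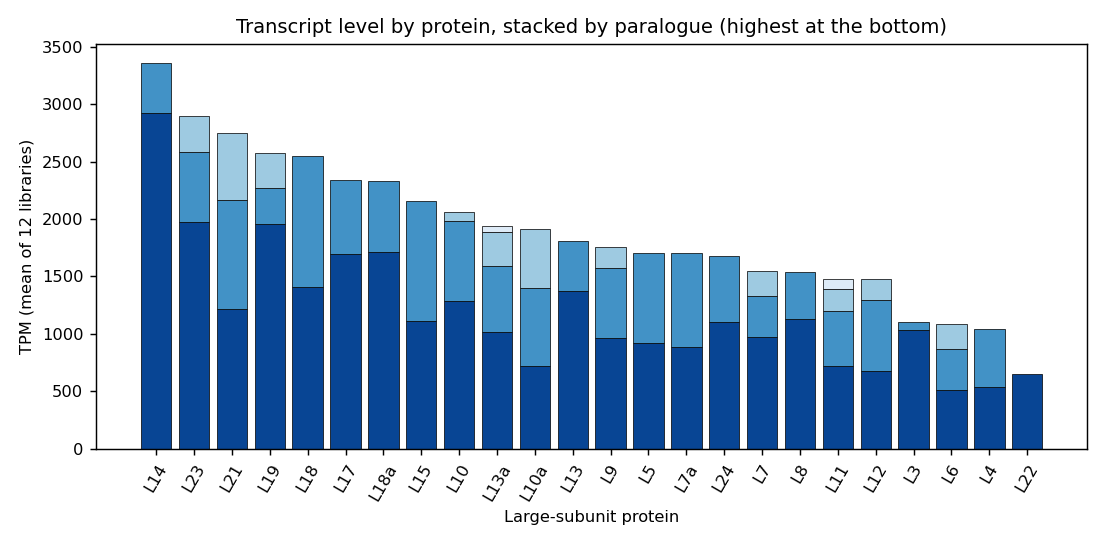
Mean TPM over the 12 libraries for each of the 24 large-subunit proteins, with paralogues stacked from the highest (bottom) to the lowest. L14 stands highest at 3357 TPM and rests mostly on 1 gene, whereas the bars of L4 and L15 are split almost evenly.

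Within a protein, 1 gene often supplied most of the transcript. All shares given here are of the listed genes of a protein, and genes outside the list are not counted. RP1 made up 94.16% of L3 transcript, and RPL3B the rest. AT4G27090 made up 87.25% of L14, with AT2G20450 as the minor gene. emb2386 held 76.0% of L19, ahead of AT4G02230 and AT3G16780. BBC1 held 75.63% of L13 beside AT5G23900, and AT2G34480 held 73.34% of L18a beside AT3G14600. The most even pairs were the L4 genes AT3G09630 and AT5G02870, where the leader had 50.97%, and the L15 genes AT4G16720 and AT4G17390, where it had 51.49%. They were followed by the L7a genes AT3G62870 and AT2G47610, the L5 genes ATL5 (AT3G25520) and RPL5B (AT5G39740), and the L18 genes RPL18 (AT3G05590) and AT5G27850, whose leaders held 51.96%, 54.19% and 55.45%. The same gene led in all 12 libraries for 21 of the 23 proteins; the exceptions were L4 and L12, where the leader led in 11. Coding sequences of paralogues were 79.7% to 99.1% identical (median 84.9% over 51 pairs). Of these, 2 pairs exceeded 95%, the L9 genes AT1G33120 and PGY2 (AT1G33140) at 99.1% and the L21 genes AT1G09590 and AT1G09690 at 96.2%, and the split of reads within them is uncertain.

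The first comparison asked what bleomycin did to root tips of each genotype. All 60 members had a lower estimate after bleomycin in both genotypes; 47.6% of all loci tested were below 0 in the mutant, 48.9% in Col-0 and 47.7% in the average of both. In scl5 scl21 pat1 the median member was at 0.654 of its control level (log2 fold change -0.61, range -0.83 to -0.30), and in Col-0 at 0.689 (log2 -0.54, range -0.96 to -0.09). The median over all loci tested was 0.03 in the mutant and 0.01 in Col-0 on the same scale. Averaged over the genotypes, 59 of 60 members fell at an adjusted p under 0.05 (edgeR quasi-likelihood test, Benjamini-Hochberg adjustment over all loci), and none rose; 24% of all loci tested passed in either direction and 11.1% were lower. The median member change in this average was -0.56, or 32.4% less, against 0.02 over all loci.

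Taken one genotype at a time, 54 members fell in scl5 scl21 pat1, where 8.01% of loci passed and 3.81% were lower, and 41 fell in Col-0, where 6.75% passed and 2.46% were lower. These 2 counts depended on single libraries, while all 60 estimates stayed below 0 whichever library was left out. The mutant count was 4 without mutant bleomycin library 1, where 2.31% of all loci were called, and 13 without bleomycin library 2 (2.71%). It was 21 without control library 2 (2.78%) and 30 without control library 3 (4.23%). The Col-0 count was 2 without Col-0 bleomycin library 1, where 2.65% of all loci were called, and 21 without bleomycin library 2 (3.79%). It was 1 without control library 3 (1.97%) and 0 without control library 2 (1.61%). With the 2 Col-0 groups fitted alone it was 3 (3.99%). Leaving out any 1 library moved the averaged count to between 57 and 60.

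The members together took 2.65%, 2.72% and 3.21% of the reads in the 3 mutant bleomycin libraries, against 4.18%, 4.42% and 4.52% in the mutant control libraries. In Col-0 they took 2.42%, 3.12% and 3.18% after bleomycin, against 3.63%, 4.41% and 4.55% on control medium. Bleomycin libraries lay below control libraries in both genotypes, with no overlap. Gene by gene, in CPM after TMM scaling, the 3 bleomycin libraries lay below the 3 control libraries for all 60 members in the mutant (14.5% of all loci did so) and for 54 in Col-0 (14.7%). In bulk tissue, fewer cells of a type and less RNA per cell cannot be told apart. On the authors' TPM scale, a check added after seeing the data, all 60 means were again lower after bleomycin in each genotype, but the libraries of 15 members overlapped in the mutant and those of 8 in Col-0. The share of all loci that overlapped on the TPM scale was not computed, so these counts have no background.

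**Figure D2:**
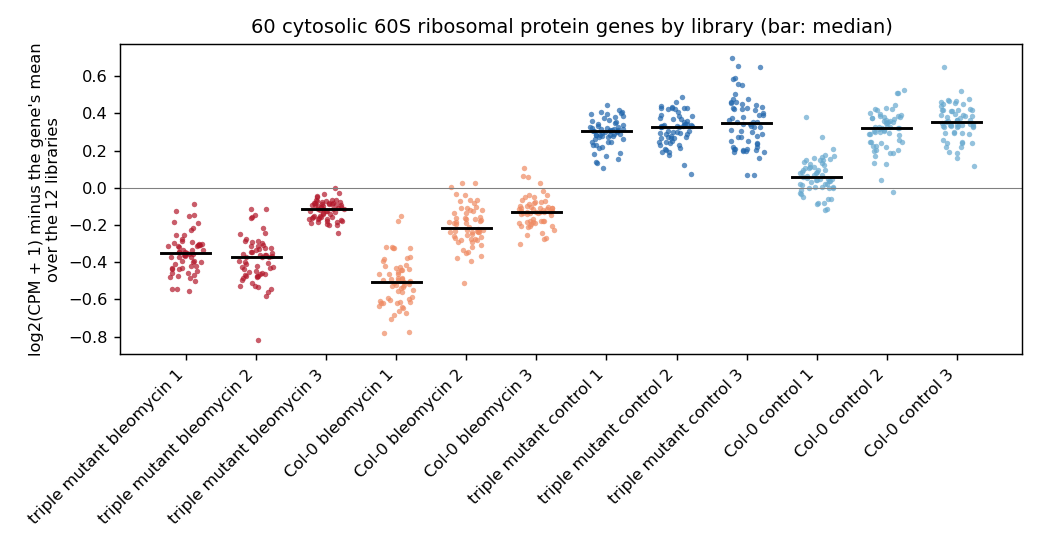
Level of each of the 60 members in each library, as log2(CPM + 1) minus the gene's own mean over the 12 libraries; points are genes and bars are medians. All 6 bleomycin medians (-0.51 to -0.11) lie below all 6 control medians (0.06 to 0.35), with the Col-0 control library 1 the lowest of the controls.

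The largest decrease belonged to a minor gene. RPL3B, the lesser L3 gene, had 54.36, 42.83 and 72.52 CPM in the mutant after bleomycin, against 92.89, 83.34 and 124.4 CPM on control medium. In Col-0 it had 49.40, 57.82 and 63.04 CPM after bleomycin, against 99.65, 110.5 and 120.5 CPM on control medium. Every bleomycin library lay below every control library. The averaged log2 fold change was -0.89 ± 0.14 (SE; edgeR adjusted p = 0.000786). Its partner RP1, which supplies nearly all L3 transcript, had 1071, 787.7 and 1111 CPM in mutant bleomycin libraries, against 1332, 1367 and 1194 CPM in mutant control libraries. In Col-0 RP1 had 1003, 796.8 and 1188 CPM after bleomycin, against 1373, 1326 and 1323 CPM on control medium, so its libraries separated by medium in both genotypes. RP1 changed by -0.41 ± 0.11 in the average (edgeR adjusted p = 0.0175) and was not called in either genotype alone (adjusted p = 0.141 in the mutant and 0.112 in Col-0). In Col-0 it was called by DESeq2 (adjusted p = 0.0448) and by edgeR with the replicate number as a block (0.0363), and its adjusted p ran from 0.0363 to 0.374 over 22 alternatives. Its TPM values overlapped between bleomycin and control libraries.

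After RPL3B, the next largest averaged decreases were in emb2171 (-0.75), the L12 gene AT3G53430 (-0.72), the L21 gene AT1G09690 (-0.72), the L18a gene AT2G34480 (-0.71) and a second L23 gene, AT2G33370 (-0.71). The L22 gene AT3G05560, RPL5B, the L7 gene AT2G44120 and the L18 gene AT5G27850 followed at -0.70 to -0.69 on the log2 scale. L5 and L11 form, with 5S rRNA, the particle that docks into the large subunit, and L12 belongs to the stalk base that recruits translation factors. emb2171 had 789.2, 973.2 and 974.9 CPM in mutant bleomycin libraries, against 1505, 1618 and 1728 CPM in mutant control libraries. In Col-0 it had 670.6, 1007 and 968 CPM after bleomycin, against 1083, 1547 and 1586 CPM on control medium. All of its bleomycin libraries were lower than all of its control libraries. In single genotypes the 10 largest decreases also included the L17 gene AT1G67430 in the mutant (-0.74) and the L10a gene AT5G22440 (-0.66) and the L9 gene AT4G10450 (-0.65) in Col-0.

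The smallest p in the average was that of the L9 gene AT1G33120 (log2 -0.61 ± 0.08, edgeR adjusted p = 0.000274). Because it shares reads with PGY2, the pair was also summed: it had 917.9, 911.1 and 1053 CPM in mutant bleomycin libraries, against 1460, 1490 and 1602 CPM in mutant control libraries. In Col-0 the pair had 793.7, 1023 and 1061 CPM after bleomycin, against 1217, 1469 and 1508 CPM on control medium. The sum separated bleomycin from control libraries in both genotypes. The most abundant member, AT4G27090 (L14), fell by 0.59 on the log2 scale (edgeR adjusted p = 0.00154). Across the 60 members, which share the same libraries, Pearson r between the averaged log2 fold change and log2 mean TPM was -0.08.

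The smallest changes were in genes of 4 proteins. SAG24 (AT1G66580), an L10 gene named for its association with senescence, had 568.1, 543.5 and 610.9 CPM in mutant bleomycin libraries, against 695.4, 663.6 and 765.5 CPM in mutant control libraries. In Col-0 it had 567.6, 573.3 and 677.8 CPM after bleomycin, against 632.3, 621.4 and 683.5 CPM on control medium. The mutant libraries separated and the Col-0 libraries overlapped. SAG24 was the 1 member not called in the average (log2 -0.20, 95% interval -0.36 to -0.03, edgeR adjusted p = 0.0758). It was called in 3 of 21 alternatives, namely DESeq2 (adjusted p = 0.0375), edgeR with the replicate number as a block (0.00959) and edgeR without Col-0 bleomycin library 3 (0.0370), and the adjusted p ran from 0.00959 to 0.234 over all 21. The L19 gene AT4G02230 (-0.26), the L7 gene AT3G13580 (-0.28) and the L13 gene AT5G23900 (-0.36) came next, and their Col-0 libraries overlapped too. The calls of AT4G02230 and AT3G13580 in the average were lost when single libraries were left out: AT4G02230 without Col-0 control library 2 or 3 or mutant bleomycin library 1 (adjusted p 0.0568, 0.0625 and 0.0620), and AT3G13580 without Col-0 control library 3, mutant control library 2 or mutant bleomycin library 1 (0.0648, 0.0518 and 0.0606).

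**Figure D3:**
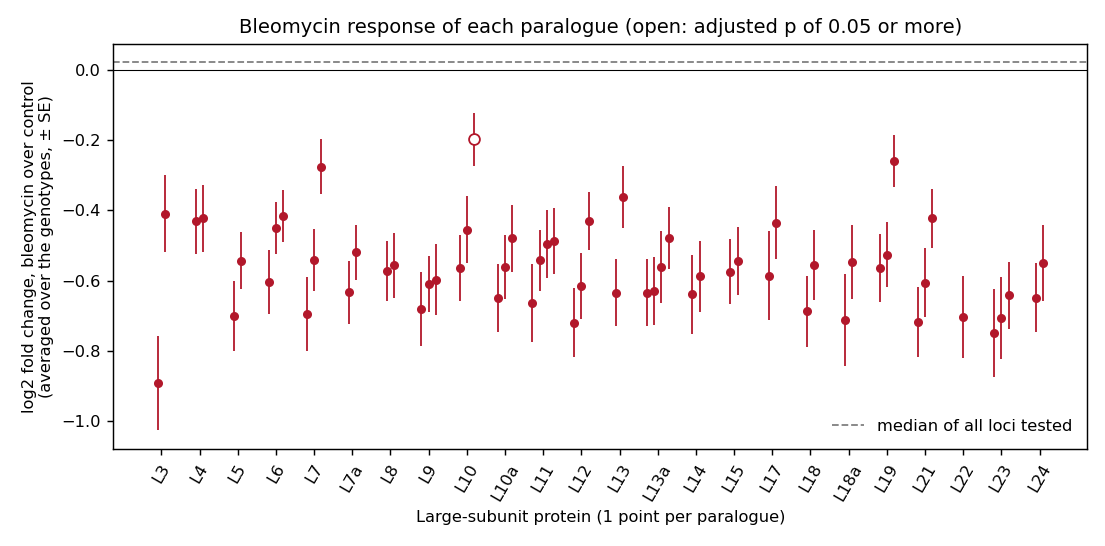
Log2 fold change of bleomycin over control, averaged over the genotypes, for each of the 60 members grouped by protein; points are edgeR estimates, bars are ± SE, and the dashed line is the median of all loci tested. All points lie below 0, from -0.89 for RPL3B to -0.20 for SAG24, the open circle.

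The share of a protein's TPM held by each paralogue was compared between media. The largest difference was in L10, where SAG24 supplied 37.05 ± 1.68% of the transcript in bleomycin libraries and 31.41 ± 1.24% in control libraries (SD, 6 libraries each). The share of SAC52, the main L10 gene, was 59.12 ± 1.55% in bleomycin libraries and 64.68 ± 1.33% in control libraries. Neither range overlapped: SAG24 held 34.96% to 39.53% of L10 after bleomycin, against 29.70% to 32.91% on control medium. Both genotypes showed it, with means of 36.4% in the mutant and 37.7% in Col-0 after bleomycin, against 31.9% in the mutant and 30.9% in Col-0 on control medium. RPL10B made up 3.88% of L10.

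Other shares differed less. The L21 gene AT1G57660 had 22.98 ± 0.86% in bleomycin libraries and 20.05 ± 0.56% in control libraries, and the L19 gene AT4G02230 had 13.56 ± 1.04% in bleomycin libraries and 11.30 ± 0.70% in control libraries, neither with overlap. RPL3B supplied 3.997% to 6.342% of L3 in bleomycin libraries and 5.308% to 9.005% in control libraries, which overlapped. In all, 10 of 59 shares separated bleomycin from control libraries, 6 higher and 4 lower, and 38 of 59 means differed by under 2 percentage points. The separated shares lay in L6, L10, L12, L13a, L18a, L19 and L21. In L10, L18a and L21 a higher and a lower share of the same protein were both counted, so these are not separate shifts. How often shares separate in other gene families was not computed, so the count has no background. Shares within a protein sum to a whole and were not tested.

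**Figure D4:**
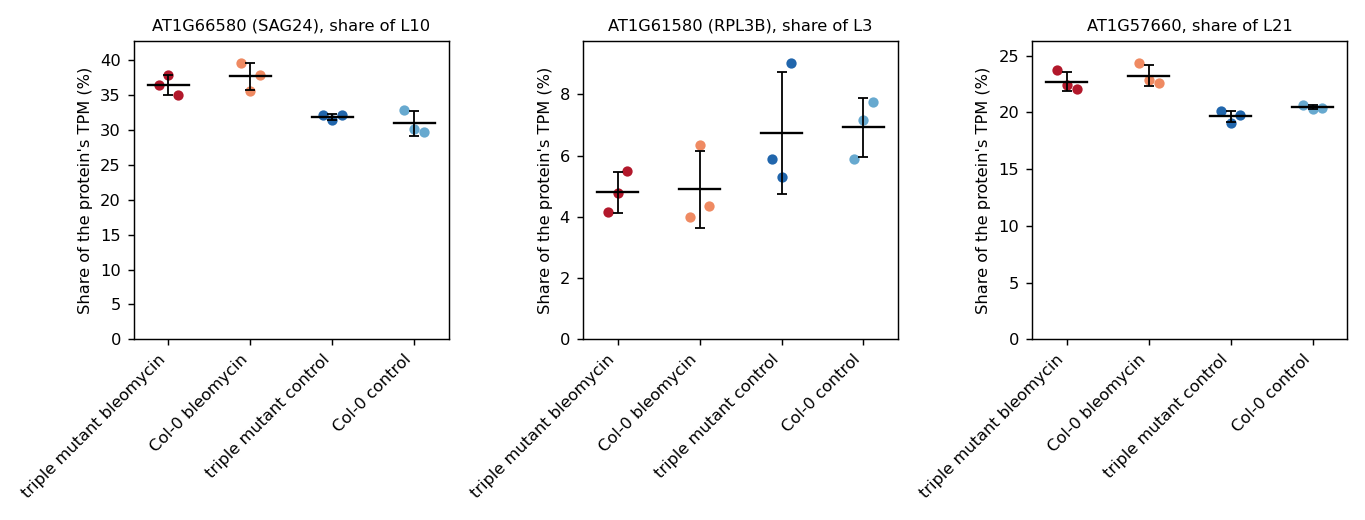
Share of the summed TPM of a protein's listed genes held by SAG24 (L10), RPL3B (L3) and AT1G57660 (L21) in each library; points are libraries, bars the group mean and error bars the SD (n = 3). SAG24 and AT1G57660 lie higher in all bleomycin libraries than in any control library, whereas the RPL3B ranges overlap.

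The second comparison asked whether the triple mutant differed from Col-0. No member was called in either medium, in the average over media or for the interaction of genotype and bleomycin (edgeR, 0 of 60 in each; 0.0278% of loci were called under bleomycin, 0.0278% in control medium, 0.0603% in the average and 0% for the interaction). The number of members with an unadjusted p under 0.05 was also 0 in each, where 1.05% of all loci had one under bleomycin, 4.8% in control medium, 3.24% in the average and 1.75% for the interaction; DESeq2 called 0 members. Under bleomycin the median difference of mutant over Col-0 was -0.01, and the 95% intervals of the 60 members together ran from -0.45 to 0.43. The outermost members were RPL10B (-0.08), AT4G10450 (-0.08) and SAG24 (-0.08) on the lower side and the L22 gene AT3G05560 (0.06), AT1G33120 (0.06) and the L6 gene AT1G74060 (0.06) on the upper.

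In control medium 52 of 60 members had a higher estimate in the mutant than in Col-0, with a median of 0.08 (50.8% of all loci were below 0) and intervals from -0.55 to 0.63. AT1G67430 (0.24), AT2G34480 (0.20) and emb2171 (0.20) were the highest, and RPL3B (-0.14), RP1 (-0.05) and the L11 gene RPL16B (AT4G18730, -0.04) the lowest. There were 2 members, AT2G47610 (L7a) and AT3G53430 (L12), with all mutant control libraries above all Col-0 control libraries, which 4.68% of all loci did. Without Col-0 control library 1 the median difference was -0.01. In the interaction, the median was -0.09, with 53 members below 0, as were 50.5% of all loci, and intervals from -0.85 to 0.71; without that library it was 0.00. AT1G67430 (-0.30), STV1 (-0.23) and AT2G34480 (-0.22) lay lowest, and RPL3B (0.13), RPL16B (0.06) and AT5G02870 (0.04) highest. Averaged over the media, the outermost members were emb2171 (0.13), AT2G34480 (0.09) and AT1G67430 (0.09) above 0 and RPL3B (-0.07), AT4G10450 (-0.05) and AT4G13170 (-0.04) below.

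Most other large-subunit genes fell as well. Of 74 other 60S ribosomal protein genes, 68 were tested, and in the averaged comparison 62 fell and 2 rose (median -0.60). In the mutant 52 fell and 2 rose, and in Col-0 22 fell and 1 rose. The largest averaged decreases were in AT1G70600 (-0.93) and AT3G08520 (-0.90), followed by AT3G56020 (-0.83) and AT3G16080 (-0.82). In single genotypes AT5G56710 (-0.94) in the mutant, and AT3G55750 (-0.69) and AT5G47700 (-0.67) in Col-0, were also among the 4 largest. The 35 ribosome biogenesis factors, which process rRNA and assemble subunits, had a median of -0.21 in the average, with 12 lower and 1 higher. BRX1-2 (-0.55), the box C/D fibrillarins FIB2 (-0.52) and FIB1 (-0.43), and RRS1 (-0.45) had the largest decreases. The riser was NUC2, a nucleolin gene (1.05, edgeR adjusted p = 0.013). In the mutant alone BRX1-2, FIB2 and FIB1 fell. In Col-0 no biogenesis factor was called by edgeR, and 14 of 35 had an unadjusted p under 0.05, as had 5236 of all 21561 loci tested.

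Outside the 60, 2 rarely transcribed large-subunit genes rose. AT3G48960, the L13e family gene printed above, whose coding sequence is 86.3% identical to that of BBC1, had 21, 20 and 29 reads in mutant bleomycin libraries and 0 in each mutant control library. In Col-0 it had 66, 36 and 15 reads after bleomycin and again 0 in each control library. Against a floor of 3 reads over the control group, its mean CPM after bleomycin was 22.3 times the floor in the mutant and 38.8 times in Col-0. The libraries varied (0.598 CPM, SD 0.12, in the mutant and 0.989 CPM, SD 0.629, in Col-0). AT3G48960 passed the filter on low counts only through its bleomycin libraries. Its edgeR call among the genes that rose is therefore no test of the rise. BBC1 itself had 611.1, 532.3 and 719.6 CPM in mutant bleomycin libraries, against 956.7, 946.7 and 1068 CPM in mutant control libraries. The 60S acidic ribosomal protein gene AT3G28500 had 52, 101 and 67 reads in mutant bleomycin libraries, against 12, 7 and 0 in mutant control libraries. In Col-0 it had 58, 104 and 46 reads after bleomycin, against 13 in each control library. In the average it was 7.48-fold higher (edgeR adjusted p = 0.00496). Both genes stayed under the members in level, at 0.598 and 1.86 CPM in the mutant after bleomycin, where RPL10B had 37.31 CPM in its lowest library.

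Marker genes of cell types also differed between media. Of 8 markers of dividing cells (CYCB1;2, KNOLLE, AUR1, CDKB2;1, CYCA2;3, HINKEL, CDKB1;1 and POK1), 5 fell and none rose in the averaged comparison, and their summed level was 160.5 to 270.7 CPM in bleomycin libraries, against 264.6 to 310.7 CPM in control libraries. Of 5 endodermis markers 3 rose and of 6 xylem markers 4 rose, none falling. Among all 21561 loci tested, 2787 rose and 2386 fell in this average. No endodermis or xylem marker was called in either genotype alone. The endodermis sum was 277.9 to 539.2 CPM in bleomycin libraries and 155.8 to 386.4 CPM in control libraries, and the xylem sum was 128.6 to 285.9 CPM in bleomycin libraries and 72.49 to 163.4 CPM in control libraries. Root hair markers gave 1 of 4 higher, with sums of 282.6 to 465.3 CPM after bleomycin against 197.2 to 361.9 CPM on control medium. Of 8 root tip markers 2 rose and 1 fell, and their sum was 186.7 to 221.2 CPM after bleomycin, against 197.5 to 239.1 CPM on control medium. Photosynthesis markers summed to 9.74 to 32.05 CPM after bleomycin, against 7.915 to 33.26 CPM on control medium, and none was called. No marker of the dividing cell, xylem or root hair lists was at 0 reads in any library. In mutant control library 3, 1 endodermis marker and 2 photosynthesis markers were at 0 reads; 1 photosynthesis marker was at 0 in mutant bleomycin library 2 and in Col-0 bleomycin library 3. In Col-0 control library 1, the control with the lowest member level, xylem markers summed to 163.4 CPM and endodermis markers to 386.4 CPM, the highest of the 6 controls in both lists. The bleomycin libraries numbered 3 had the highest member median among the bleomycin libraries of their genotype and the highest dividing cell sum (270.7 CPM in the mutant and 265.4 CPM in Col-0). By sums, other libraries went the other way. Mutant control library 3 had the highest member sum (45100 CPM) but the lowest dividing cell sum of the controls (264.6 CPM). Col-0 control library 1 had a dividing cell sum of 299.5 CPM. Col-0 bleomycin library 1 had a lower member sum than library 2 (24510 against 30130 CPM) but a higher dividing cell sum (189.1 against 183.0 CPM). The dividing cell medians ranked these libraries differently. Mutant control library 3 stood at 0.205 (0.204 and 0.174 in libraries 1 and 2). Col-0 control library 1 stood at 0.270 (0.324 and 0.285 in libraries 2 and 3). Col-0 bleomycin library 1 stood at -0.399, against -0.319 in library 2. Yet Col-0 control library 2 exceeded library 3 in this median but not in member median (0.3225 against 0.3518), as mutant control library 1 did library 2. The part of these cell types in the members' decrease was not tested.

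**Figure D5:**
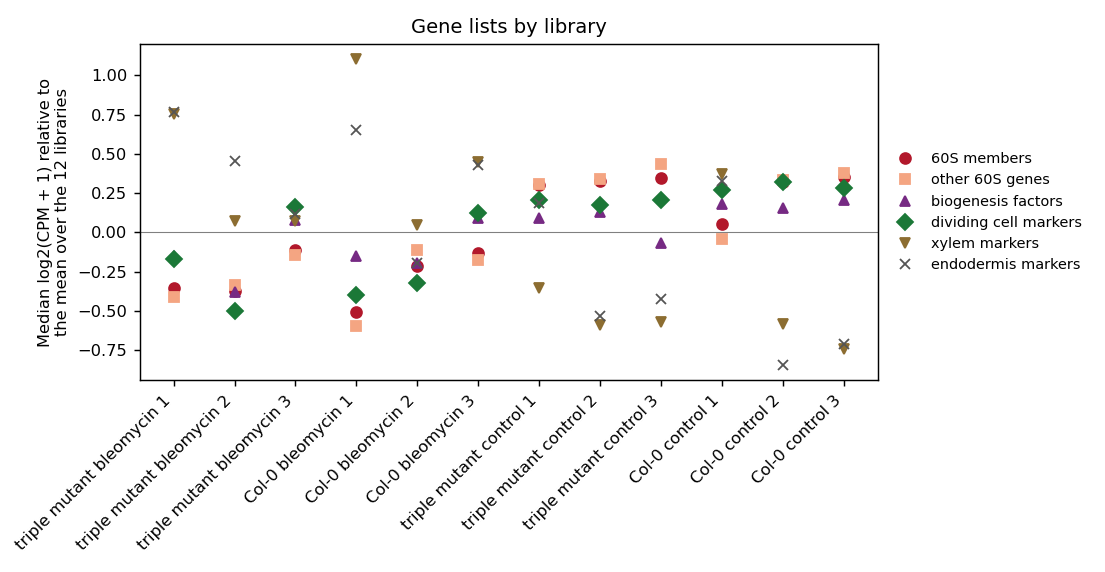
Median of each gene list by library, as log2(CPM + 1) relative to each gene's mean over the 12 libraries. The 60 members and the other 60S genes have lower medians in all bleomycin libraries than in any control library, as do the dividing cell markers, and xylem and endodermis markers are mostly higher.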

How the data were processed

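Root tips of scl5 scl21 pat1 and Col-0 were profiled by RNA-seq with 3 libraries per group. Per the labels' protocols, RNA came from a RNeasy Plant Mini kit and libraries from a NEBNext Ultra kit with no strand-marking version named, so reads of overlapping antisense genes cannot be told apart. Per the submitters' processing notes, CASAVA and Salmon 0.9.1 were used; genome build: not given in the sources used here, nor the annotation. The deposited tables hold, per transcript, the estimated counts (NumReads) and TPM that the authors made, with length and effective length per the file headers.

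Transposable element transcripts were dropped, and reads and TPM were summed per locus; the sums of estimated counts were rounded to whole numbers. Loci passing filterByExpr (21561 of 37138) were fitted in edgeR 4.0.16 (R 4.3.3) with TMM scaling and 1 term per group over all 12 libraries, and 7 contrasts were tested by the two-sided quasi-likelihood F test with Benjamini-Hochberg adjustment at 0.05. CPM values are TMM-scaled. SE is the fold change over the square root of F, and 95% intervals use the test's degrees of freedom. The script was tested on simulated data. Of 100 loci given a log2 change of 0.6, it recovered 21 in the Col-0 comparison and 79 in the average. Of 100 given a change of 1.0, it recovered 91 in the Col-0 comparison and 100 in the average. False calls were 5 and 4 of 21561 loci. Far fewer loci were changed than were called in the data, so these shares are not recovery rates for the members. DESeq2 1.42.0, other scalings, no filter, a replicate block and leaving out libraries were alternatives.

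Named members were the 10 largest changes per comparison with calls, the 3 highest and 3 lowest levels, all genes of the 5 most uneven and 5 most even proteins, and the 3 outermost each way where none was called; other genes were at most 4 per direction. Others in the text were chosen after their values were seen. The members, lists and rules were chosen with earlier results of these data known. Protein numbers were assigned from general knowledge beside RefSeq's family names, which use another numbering for some proteins. Upstream sequences come from RefSeq TAIR10.1; all 105 member transcripts were found there by name and 80 had the same length as in the deposited tables, and these coordinates were not combined with the files. Replicates of a group differed beyond counting noise (chi-square per degree of freedom from 18.6 to 101.1) and all 12 libraries stayed separate samples.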

Additional observations from a re-analysis of the deposited data

How the results depend on the processing

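Counts of called members under alternatives were as follows. Without single libraries, or without all libraries of 1 replicate number (an alternative chosen after seeing the data), they ranged from 0 to 55 in scl5 scl21 pat1 (0.539% to 8.39% of all loci called), from 0 to 47 in Col-0 (0.516% to 9.42%) and from 33 to 60 in the average (4.62% to 25.3%); the 33 came without the libraries numbered 2. With the 2 Col-0 groups alone, 3 members were called (3.99% of all loci). The other scalings, dropping the rRNA and organelle loci, DESeq2, no filter and the replicate block gave 51 to 60 in the mutant (6.39% to 16.8% of all loci), 37 to 56 in Col-0 (5.46% to 15.9%) and 59 to 60 in the average (18.2% to 32.6%); the 2 mutant groups alone gave 49 (6.01%). The cause of the lost calls was not tested, beyond there being fewer libraries. No alternative called a member for genotype or interaction. The median bleomycin change stayed between -0.70 and -0.57 in the mutant and between -0.62 and -0.44 in Col-0, with 60 of 60 members below 0 each time. Scaling moved the median of all loci by at most 0.0255.

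With the replicate number as a block, 60 members were called in the mutant, where 16.8% of all loci were, 56 in Col-0 (15.9%) and 60 in the average (32.6%). RP1 in the mutant was called only by this fit (adjusted p = 0.0488, against 0.0704 by DESeq2). Same-numbered libraries correlated at 0.006 to 0.625 in their deviations from group means. Of these, 15 of 18 pairs exceeded 0.1, against 3 of 36 pairs with different numbers. Deviations cancel within a group, so the 36 pairs are no independent reference. Since not every same-numbered pair exceeded 0.1, the numbers were not taken to pair the samples over the whole design. The main counts therefore come from the fit without a block. All 3 same-numbered pairs exceeded 0.1 between media in Col-0 (0.133 to 0.538). The same held between genotypes under bleomycin (0.369 to 0.625) and in control medium (0.133 to 0.284), and for 2 of 3 pairs between media in the mutant. The mean share of the leading paralogue was 61.07% by TPM and 59.9% by reads, and the range over proteins was 5.16-fold by TPM and 6.25-fold by CPM, which does not account for length. At 1323 reads or more per member, depth limits the members little; it limits AT3G48960 and AT3G28500.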
